A study of Mus musculus with 4 samples.

Results

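Of interest here are 87 long noncoding RNAs that lie antisense to, or start beside, a coding gene, out of 54532 genes in the deposited table. They were chosen by a rule on annotation and level. The annotated biotype had to be antisense or bidirectional promoter lncRNA, and the mean of the 4 libraries had to reach 1 FPKM (fragments scaled to the length of the gene and the size of the library). Gas5, Zfas1 and the Snhg genes, which host small nucleolar RNAs, were left out. Of 2991 genes with these biotypes 2 were left out by name, 1 of them above the level, which left 2989 candidates. A read was found in at least 1 library for 1332 candidates and in all 4 libraries for 292. The 87 RNAs hold 73 antisense and 14 bidirectional promoter RNAs. Since the libraries' own values chose them, their level is a description.

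The labels describe the libraries as CD4+ T cells, sorted by flow cytometry from tumours of the mouse melanoma line B16, which makes pigment, and the marker genes given below go against this label. 2 libraries carry the genotype Piezo1KO and 2 carry WT, and the treatment label of all 4 is the tumour microenvironment. Piezo1 encodes a channel that mechanical force opens, and the series asks about its part in the differentiation of T cells that make interleukin 9. The allele, the strain and the age are not in the labels, and they do not state that each library came from its own animal. P-values therefore measure the spread between these libraries only, which may be technical. Libraries are numbered by the sample number of their titles, so WT 1 and WT 2 are the columns numbered 2 and 3.

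Antisense RNAs are transcribed from the strand opposite to a coding gene, and some of them act on that gene by transcription across it, by pairing with its RNA or by carrying factors to it. Divergent promoters fire in both directions, and the upstream product is often kept short and rare by early polyadenylation and by the nuclear exosome, which degrades it. Many annotated RNAs of these classes have no known role.

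3 promoters of divergent pairs are shown first, because there the RNA and the coding gene start close to each other on opposite strands. Each runs 5′ to 3′ on the strand of the RNA, in the RefSeq window of 250 bases before to 50 bases after its start, on build GRCm38.p6. Capitals mark the bases between the start of the coding gene and that of the RNA, both included. The first belongs to 2610306M01Rik and Aak1, a kinase of clathrin adaptors (chr6:86849391-86849690, minus strand), the second to 2810001G20Rik and Cox10, an enzyme of haem A synthesis (chr11:64079234-64079533, plus strand), and the third to 0610009L18Rik and Actg1, the gene of cytoplasmic gamma actin (chr11:120348428-120348727, plus strand).
2610306M01Rik: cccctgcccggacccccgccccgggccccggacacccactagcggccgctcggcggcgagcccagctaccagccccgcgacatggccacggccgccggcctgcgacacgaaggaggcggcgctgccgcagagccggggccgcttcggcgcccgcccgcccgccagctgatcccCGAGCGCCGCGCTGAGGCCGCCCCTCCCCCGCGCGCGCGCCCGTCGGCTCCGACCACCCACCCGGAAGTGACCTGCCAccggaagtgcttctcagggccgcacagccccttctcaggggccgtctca
2810001G20Rik: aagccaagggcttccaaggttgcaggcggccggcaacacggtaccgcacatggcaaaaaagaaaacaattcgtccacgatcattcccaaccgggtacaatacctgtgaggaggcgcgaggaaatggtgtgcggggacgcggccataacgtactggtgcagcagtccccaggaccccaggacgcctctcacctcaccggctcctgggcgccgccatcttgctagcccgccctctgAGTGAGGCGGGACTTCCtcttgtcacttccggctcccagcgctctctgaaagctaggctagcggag
0610009L18Rik: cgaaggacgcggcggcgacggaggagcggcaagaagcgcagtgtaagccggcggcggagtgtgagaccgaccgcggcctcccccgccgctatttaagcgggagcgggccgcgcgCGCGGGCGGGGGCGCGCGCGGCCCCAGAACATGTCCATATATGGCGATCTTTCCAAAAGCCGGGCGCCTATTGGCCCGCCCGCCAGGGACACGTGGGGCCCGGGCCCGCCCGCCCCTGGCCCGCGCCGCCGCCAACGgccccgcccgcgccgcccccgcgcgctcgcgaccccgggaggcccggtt

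These windows hold 43, 22 and 53 CpG dinucleotides, against a median of 7 over the 32851 RefSeq promoter windows. The starts of RNA and coding gene lie 77, 16 and 136 bases apart. The third window holds 1 CArG box, the motif that serum response factor binds, as CCATATATGG, which starts 102 bases before the start of the RNA. A match to the CArG box is in 1.63% of all windows.

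3 promoters of RNAs with low Piezo1KO values follow for contrast. Capitals mark the 50 bases from the start on. 4930557K07Rik (chr6:125049804-125050103, minus strand) runs across Zfp384, a zinc finger gene. Scpep1os (chr11:88905678-88905977, plus strand) overlaps the end of Scpep1, a carboxypeptidase gene. 4930579G18Rik (chr14:54650261-54650560, plus strand) starts inside Acin1, a gene of a splicing-associated protein.
4930557K07Rik: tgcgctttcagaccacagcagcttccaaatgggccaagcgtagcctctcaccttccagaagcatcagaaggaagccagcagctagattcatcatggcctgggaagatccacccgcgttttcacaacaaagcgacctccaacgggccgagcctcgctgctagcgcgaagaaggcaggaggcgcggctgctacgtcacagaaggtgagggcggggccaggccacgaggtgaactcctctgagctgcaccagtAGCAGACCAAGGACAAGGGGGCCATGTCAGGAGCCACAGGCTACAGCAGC
Scpep1os: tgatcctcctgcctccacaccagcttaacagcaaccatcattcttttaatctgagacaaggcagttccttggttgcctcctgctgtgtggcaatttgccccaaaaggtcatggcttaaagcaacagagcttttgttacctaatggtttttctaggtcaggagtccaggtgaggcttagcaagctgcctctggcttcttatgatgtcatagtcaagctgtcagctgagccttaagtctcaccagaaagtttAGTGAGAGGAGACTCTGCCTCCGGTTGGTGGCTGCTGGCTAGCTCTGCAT
4930579G18Rik: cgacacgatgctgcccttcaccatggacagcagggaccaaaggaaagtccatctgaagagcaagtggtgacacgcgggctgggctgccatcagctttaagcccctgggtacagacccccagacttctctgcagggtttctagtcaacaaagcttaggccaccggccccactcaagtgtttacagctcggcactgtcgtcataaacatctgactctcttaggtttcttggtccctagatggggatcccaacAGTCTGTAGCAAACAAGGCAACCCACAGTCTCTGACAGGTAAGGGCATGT

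These 3 windows hold 15, 1 and 7 CpG. RefSeq windows were matched by symbol for 52 of the 87 RNAs, and for 24 of them the RefSeq start lay within 10 bases of the deposited start. The median window of these 24 held 27.5 CpG at 65% GC, against 7 CpG at 52.7% GC over all windows. It was 33.5 CpG (22 to 53) for 8 divergent RNAs, 25 for 7 RNAs inside a coding gene and 13 for 6 RNAs that overlap its end. Motifs were searched on both strands as fixed letters. GGGCGG, the core letters of a GC box, was in 7 of the 8 divergent windows, against 35.7% of all windows, CCAAT was in 4, against 37.4%, and CCGGAAG, an ETS core, was in 3, against 8.86%. TATAAA was in 0 of the 8, against 13.6%. GGGCGG and CCGGAAG contain CpG, so their counts are not separate from the CpG content.

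By position, 66 of the 87 RNAs overlap a coding gene and 21 do not. All but 1 lie on the strand opposite to it (2810013P06Rik, within the annotated span of Gm20388, is the exception). Among the overlapping RNAs, 26 lie inside the coding span, 18 overlap its start head to head, 17 overlap its end tail to tail and 4 cover it. Of the RNAs that do not overlap, 17 are divergent, with starts 16 to 682 bases apart (median 136), and 4 are other neighbours. The RNAs come from 19 chromosomes, with 12 on chromosome 6, 10 on chromosome 11 and 8 on chromosome 2. Annotated gene lengths were 294 to 9734 bases, with a median of 977.

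Strand was not stated for the library or the counting. Reads from an RNA and from the coding gene opposite to it therefore cannot be told apart where their exons overlap. The same holds where an RNA lies in an intron and unspliced RNA of the coding gene was read. Shared exonic bases do not measure this, and it was not tested. In the GENCODE M21 annotation, 17 of the 66 overlapping RNAs share no exonic base with a coding gene. Of the 87, 13 share at least 25% of their exonic bases with coding genes. The highest share was 59.5%, in Gm17201 inside Ankrd52, a gene of a phosphatase regulatory subunit.

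Assigned reads were 15331499 and 13789266 in Piezo1KO 1 and 2, and 15645069 and 15892797 in WT 1 and 2. Piezo1KO 2 stood apart, with 48.3% of reads in mitochondrial genes, against 20.1% in Piezo1KO 1 and 3.86% and 2.99% in WT. Piezo1 itself was at 18.7 and 7.64 FPKM in Piezo1KO and at 27.8 and 27.6 FPKM in WT (log2 fold change -1.14, limma adjusted p = 0.166), lower in both Piezo1KO libraries but not past the threshold of 0.05. The libraries did not look like T cells by their markers. Summed over 10 T cell markers, Piezo1KO had 11.6 and 6.91 FPKM and WT had 1.44 and 1.51 FPKM, with 0 and 1 of the 10 at 0 reads in Piezo1KO and 4 and 1 in WT. Cd3e had 27 and 0 reads in Piezo1KO and 1 and 2 reads in WT. Melanocyte markers summed to 6727 and 6710 FPKM in Piezo1KO and to 6109 and 6139 FPKM in WT. In bulk RNA, fewer cells of a type and less RNA per cell cannot be told apart.

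Most of the 87 RNAs were rare. The mean over the 4 libraries ran from 1.01 to 29.3 FPKM, with a median of 1.71. It was under 2 FPKM for 54 RNAs and at least 5 FPKM for 9. Reads were found in all 4 libraries for 77. Just inside the threshold stood Gm11739 at 1.01, C330013E15Rik at 1.04 and Gm47471 at 1.05 FPKM, and just outside it 1110002L01Rik at 0.987, Gm26688 at 0.978 and Gm13963 at 0.977 FPKM. Both group means were at least 1 FPKM for 58 RNAs. The Piezo1KO mean was below that for 16, which passed through WT alone, and the WT mean was below it for 13, which passed through Piezo1KO alone, so these had to differ between groups.

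Summed over the 87 RNAs, 5393 and 4032 reads were counted in Piezo1KO and 8260 and 8909 reads in WT. In Piezo1KO this amounted to 0.0352% (0.0342 to 0.0361) and 0.0292% (0.0283 to 0.0302) of the assigned reads, with exact 95% binomial intervals in brackets. In WT it was 0.0528% (0.0517 to 0.0539) and 0.0561% (0.0549 to 0.0572). Of the reads outside mitochondrial genes the shares were 0.0440% and 0.0565% in Piezo1KO and 0.0549% and 0.0578% in WT, so Piezo1KO 2 then lay within the WT values and Piezo1KO 1 below them. Intervals cover counting error only.

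A typical member was counted from few reads. The median was 33 and 19 reads in Piezo1KO 1 and 2, and 35 and 41 reads in WT 1 and 2. Fewer than 10 reads were counted for 23 and 26 RNAs in Piezo1KO and for 8 and 3 in WT, and 3, 8, 0 and 0 RNAs had none. The Piezo1KO libraries also differed more from each other. The median absolute log2 difference between the libraries of a group was 0.47 in Piezo1KO and 0.19 in WT for these RNAs, and 0.29 and 0.11 over all 11085 genes tested.

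The RNA with the highest mean was Ndufb1-ps, whose name marks it as a pseudogene of a subunit of respiratory complex I, and whether it shares reads with other copies was not tested. It had 15.3 and 72.3 FPKM in Piezo1KO and 15.4 and 14.2 FPKM in WT. Piezo1KO 2 alone was high, and Piezo1KO 1 lay within the WT values. The log2 fold change was 1.14 (adjusted p = 0.325), and 0.05 without Piezo1KO 2.

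Gm17201 and Brip1os came next. Gm17201 had 18.8 and 31.5 FPKM in Piezo1KO and 21.3 and 25.8 FPKM in WT. Brip1os, which spans Ints2, a subunit gene of the Integrator complex, had 9.35 and 13.3 FPKM in Piezo1KO and 11.5 and 11.1 FPKM in WT. In both RNAs the Piezo1KO libraries lay on either side of the WT libraries.

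Tug1, a conserved lncRNA first described in the mouse retina, starts head to head with Morc2a, a gene of chromatin compaction. It had 6.55 and 5.52 FPKM in Piezo1KO and 8.20 and 8.30 FPKM in WT. Both Piezo1KO libraries were below both WT libraries, and the difference did not pass (log2 fold change -0.40, adjusted p = 0.160). Morc2a had 6.25 and 4.97 FPKM in Piezo1KO and 10.6 and 11.2 FPKM in WT (log2 fold change -0.85, adjusted p = 0.0991).

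Gt(ROSA)26Sor, the RNA of the locus widely used to insert transgenes, had 4.08 and 6.45 FPKM in Piezo1KO and 4.82 and 4.06 FPKM in WT, and the groups overlapped. A list of 50 antisense and promoter RNAs with published roles or names held 40 genes of the table, of which 16 have these biotypes and 3 reached the level. These were Tug1, Hotairm1 and B230354K17Rik. B230354K17Rik had 1.22 and 1.48 FPKM in Piezo1KO and 2.03 and 2.10 FPKM in WT (log2 fold change -0.39, adjusted p = 0.198).

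**Figure D1:**
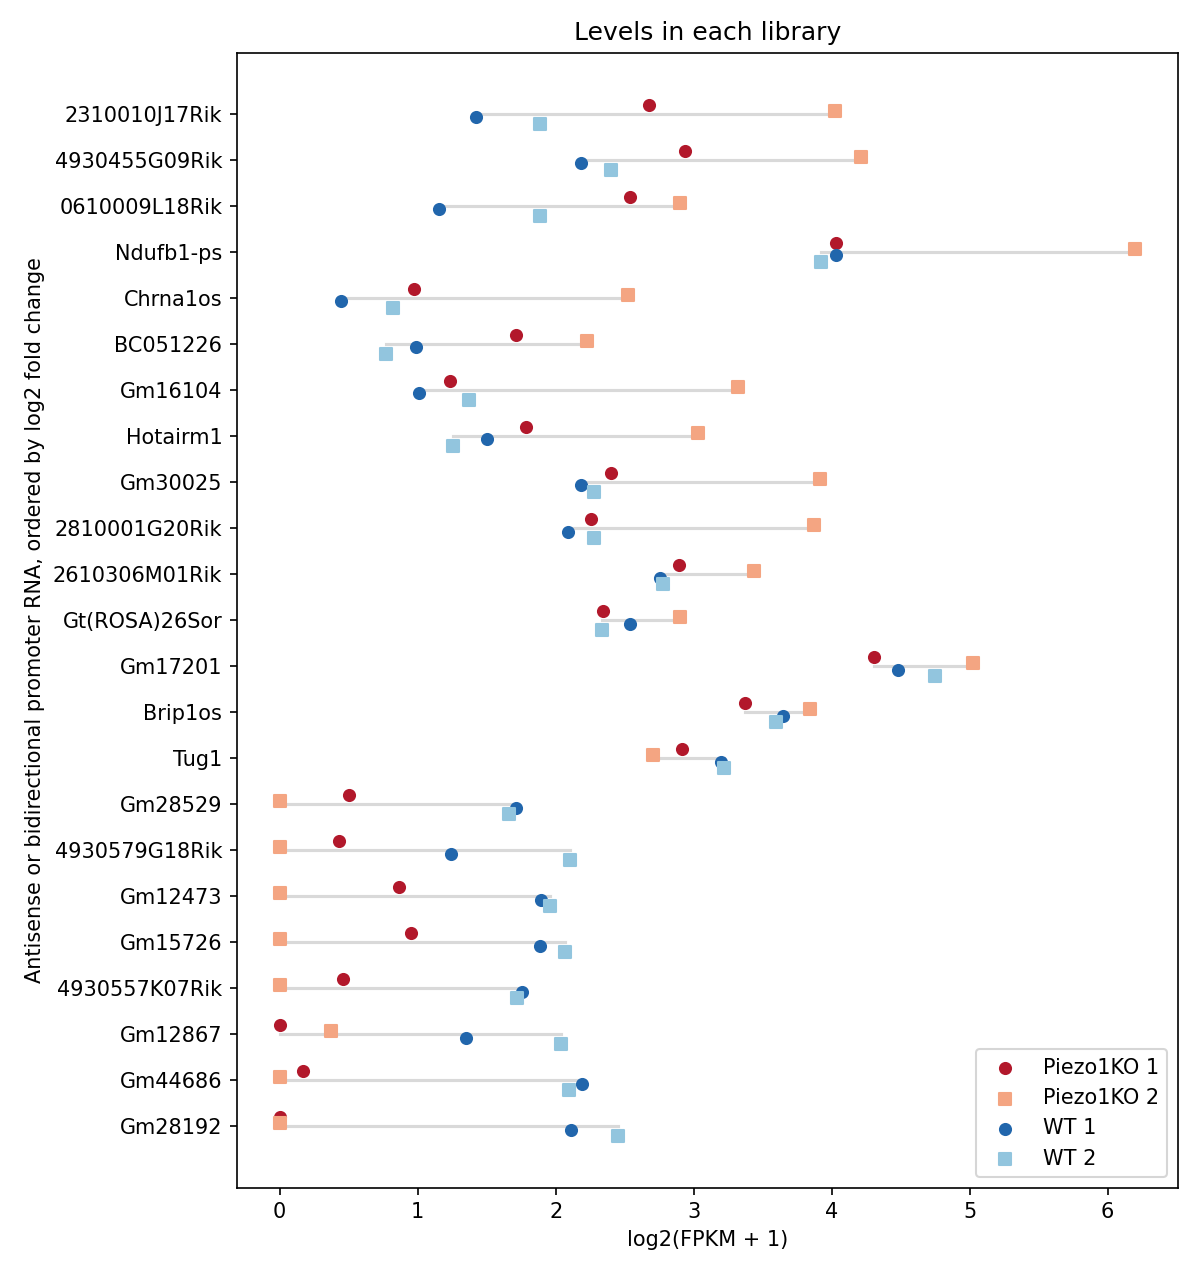
Levels of 23 RNAs in each library, as log2(FPKM + 1), ordered by log2 fold change from high (top) to low (bottom). Each point is 1 library (reds Piezo1KO, blues WT) and the grey line spans the 4 libraries; in the upper rows Piezo1KO 2 is often far above the other 3, and in the lowest rows both Piezo1KO libraries lie below both WT libraries.

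Between the groups, values were compared as log2(FPKM + 1) with limma over all 11085 genes at a mean of at least 1 FPKM, with p-values adjusted over all of them by the Benjamini-Hochberg method. 0 of the 87 RNAs passed as higher in Piezo1KO, where 0.731% of all genes tested passed. 2 of the 87 passed as lower, where 0.370% of all genes did. Both had reached the level through WT alone, which fixed their direction, so the count is a description and no evidence of a fall. At an unadjusted p under 0.05, 11 RNAs were higher and 17 were lower, against 14.9% and 13.7% of all genes. Of the 58 RNAs with both group means at least 1 FPKM, 7 were higher and 2 were lower at that p. The others counted had reached the level through 1 group alone, which fixed their direction, so these counts are a description. With voom on the recovered reads 0 of the 87 passed as higher as well (1.29% of all genes did). Both groups were fully apart in 27 RNAs upward (31.0%) and 27 downward (31.0%), where 33.9% and 35.6% of all genes were. Of the 58, 18 were apart upward and 11 downward. A 2 against 2 exact test cannot go below p = 0.333.

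Gm28192 was the RNA with the lowest fold change. It is encoded on the plus strand of chromosome 11 (chr11:120963844-120964764), inside Csnk1d, the gene of casein kinase 1 delta. The RNA shares 8.10% of its exonic bases with coding genes. It had 0 and 0 reads in Piezo1KO, against 51 and 71 reads in WT, which are 3.32 and 4.49 FPKM. The log2 fold change was -2.28 (SE 0.20, adjusted p = 0.0354), with a Piezo1KO mean of 0 that left only WT to bring it over the level, and the RNA was at least 10.1-fold lower in Piezo1KO with the empty libraries set to a floor of 3 reads each. Csnk1d had 33.3 and 36.8 FPKM in Piezo1KO and 39.2 and 39.6 FPKM in WT, a log2 fold change of -0.17 (adjusted p = 0.440).

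Gm44686, the other RNA that passed, overlaps the start of Chd2, a chromatin remodeller gene, by 3818 bases (chr7:73538013-73554801, plus strand). It had 0.126 and 0 FPKM in Piezo1KO (1 and 0 reads), against 3.57 and 3.28 FPKM in WT (38 and 36 reads). The log2 fold change was -2.06 (SE 0.18, adjusted p = 0.0354), and this RNA too reached the level through WT alone. The ratio of pooled reads, scaled to the library totals behind the deposited FPKM, was 0.0243 (exact 95% interval 0.000608 to 0.140). With the libraries of a group pooled, the interval covers counting error only and leaves out the spread between libraries. Chd2 had 1.88 and 1.41 FPKM in Piezo1KO and 2.57 and 3.35 FPKM in WT (log2 fold change -0.58, adjusted p = 0.153).

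Both calls were lost without WT 1 (adjusted p = 0.196 for Gm28192 and 0.254 for Gm44686) and without WT 2 (0.241 and 0.245), where 0 of all genes passed, and without a filter on low values (0.171 for both). Gm44686 was also lost at a pseudocount of 0.1 (0.0703). Both kept a negative sign under all 11 alternatives. Entry through WT alone and Piezo1KO values at or near 0 had fixed that sign, so it is no support.

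Gm28192 and Gm44686 were the lowest of 14 RNAs with a log2 fold change of -1 or lower, which is 16.1% of the 87, where 2.12% of all genes tested were that low. All 14 passed the level through WT alone, with Piezo1KO means of at most 0.623 FPKM and WT means of 1.69 to 3.905 FPKM. Each had 0 to 12 reads in Piezo1KO together and 34 to 134 in WT together, and 8 of the 14 had 0 reads in Piezo1KO 2. Among the 54 of the 87 RNAs with a mean under 2 FPKM, which hold all 14, 25.9% were that low. Among all genes under 2 FPKM 5.42% were, and among coding genes under 2 FPKM 1.20% were. The sign of all 14 held under rescaling to reads outside mitochondrial genes, rescaling to all assigned reads and voom. Since these RNAs were picked for their fold change and passed through WT alone, this is a description and no support. The other 12 did not pass (adjusted p from 0.0839 to 0.139).

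All 14 overlap a coding gene: 9 lie inside its span, 3 are tail to tail and 2 are head to head. In 5 of them no exonic base is shared with a coding gene. 4930557K07Rik had 0.374 and 0 FPKM in Piezo1KO and 2.38 and 2.30 FPKM in WT (log2 fold change -1.51, adjusted p = 0.0839). Scpep1os had 0.752 and 0.494 FPKM in Piezo1KO and 2.63 and 4.12 FPKM in WT (-1.41, adjusted p = 0.0938), while Scpep1 had 166.7 and 133.9 FPKM in Piezo1KO and 152.2 and 149.1 FPKM in WT. In both RNAs the groups did not overlap.

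4930435M08Rik lies in the introns of Dct, which encodes an enzyme of melanin synthesis. It had 0.216 and 0.596 FPKM in Piezo1KO and 2.23 and 2.04 FPKM in WT (-1.17, adjusted p = 0.106). Dct was at 989 and 1121 FPKM in Piezo1KO and at 850 and 870 FPKM in WT (log2 fold change 0.29, adjusted p = 0.487). The RNA was lower in both Piezo1KO libraries, and Dct was higher in both.

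The remaining low RNAs were counted from few reads as well. Gm12473, head to head with the natriuretic peptide receptor gene Npr2, had 7 and 0 reads in Piezo1KO and 31 and 34 in WT. Gm15726, inside the ubiquitin ligase gene Mid1, had 7 and 0 reads in Piezo1KO and 27 and 33 in WT. Mid1, itself below the level of the test, was lower too, with 19 and 3 reads in Piezo1KO and 102 and 175 in WT. Gm15726 shares 28.3% of its exonic bases with coding genes. Gm28529, inside Epc1, a gene of a histone acetyltransferase complex, had 6 and 0 reads in Piezo1KO and 44 and 43 in WT, and 4930579G18Rik had 5 and 0 in Piezo1KO and 26 and 65 in WT. Gm47471, in an intron of the receptor phosphatase gene Ptprm, had 1 and 4 reads in Piezo1KO and 48 and 49 in WT.

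At the other end, 8 RNAs had a log2 fold change of 1 or higher (9.20%, where 7.53% of all genes tested did), and none passed (limma adjusted p from 0.122 to 0.336). BC051226 and Chrna1os, with WT means of 0.844 and 0.566 FPKM, had reached the level through Piezo1KO alone, which fixed their direction. In 6 of the 8, which were picked for their fold change, the groups did not overlap, where 33.9% of all genes were higher without overlap. The sign of all 8 held under the same rescalings and voom, which after that choice is a description and no support. 2310010J17Rik, divergent from the clathrin assembly gene Picalm, had 5.40 and 15.3 FPKM in Piezo1KO and 1.68 and 2.69 FPKM in WT, a log2 fold change of 1.70 (SE 0.49, adjusted p = 0.140). Picalm had 13.6 and 12.4 FPKM in Piezo1KO and 11.8 and 11.9 FPKM in WT (log2 fold change 0.13).

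0610009L18Rik had 4.82 and 6.47 FPKM in Piezo1KO and 1.23 and 2.70 FPKM in WT (1.20, adjusted p = 0.130). Actg1, whose start lies 136 bases from its own, had 1081 and 1146 FPKM in Piezo1KO and 690 and 625 FPKM in WT (0.76, adjusted p = 0.162). Both genes of this pair were higher in both Piezo1KO libraries, without passing. BC051226, divergent from the histone chaperone gene Daxx, had 2.29 and 3.68 FPKM in Piezo1KO and 0.984 and 0.703 FPKM in WT (1.09, adjusted p = 0.122), and Daxx had 8.12 and 7.24 FPKM in Piezo1KO and 9.47 and 8.65 FPKM in WT.

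Hotairm1, an RNA known in human from myeloid cells, had 2.45 and 7.16 FPKM in Piezo1KO and 1.83 and 1.39 FPKM in WT (1.03, adjusted p = 0.199). Piezo1KO 2 was the highest library, and both Piezo1KO libraries were above both WT libraries. Summed macrophage and monocyte markers were 456 and 287 FPKM in Piezo1KO and 84.9 and 63.7 FPKM in WT, with 3 of 8 markers higher by the same test and 0 at 0 reads in any library. Neutrophil markers summed to 139 and 47.1 FPKM in Piezo1KO and to 0.796 and 1.23 FPKM in WT (2 of 4 tested higher), with 1 of 5 markers at 0 reads in Piezo1KO 2 and 1 in WT 2. Erythroid markers summed to 5124 and 8472 FPKM in Piezo1KO and to 389 and 244 FPKM in WT (5 of 5 tested higher, with 0 at 0 reads). Their part in the result was not tested.

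4930455G09Rik, which ends 1996 bases from the end of the transmembrane gene Tmem51, had 6.67 and 17.6 FPKM in Piezo1KO and 3.54 and 4.29 FPKM in WT (1.28, adjusted p = 0.159). Chrna1os, upstream of a muscle acetylcholine receptor gene, had 0.967 and 4.76 FPKM in Piezo1KO and 0.362 and 0.771 FPKM in WT (1.12, adjusted p = 0.239). Gm16104, inside the transcription factor gene Nfic, had 1.35 and 8.98 FPKM in Piezo1KO and 1.01 and 1.59 FPKM in WT (1.09, adjusted p = 0.336). In all 3 the Piezo1KO 2 library was far above the rest. Over the 87 RNAs, Piezo1KO 2 was the highest library for 44 (50.6%), against 36.9% of all genes tested. The part of its mitochondrial share in these values was not tested.

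**Figure D2:**
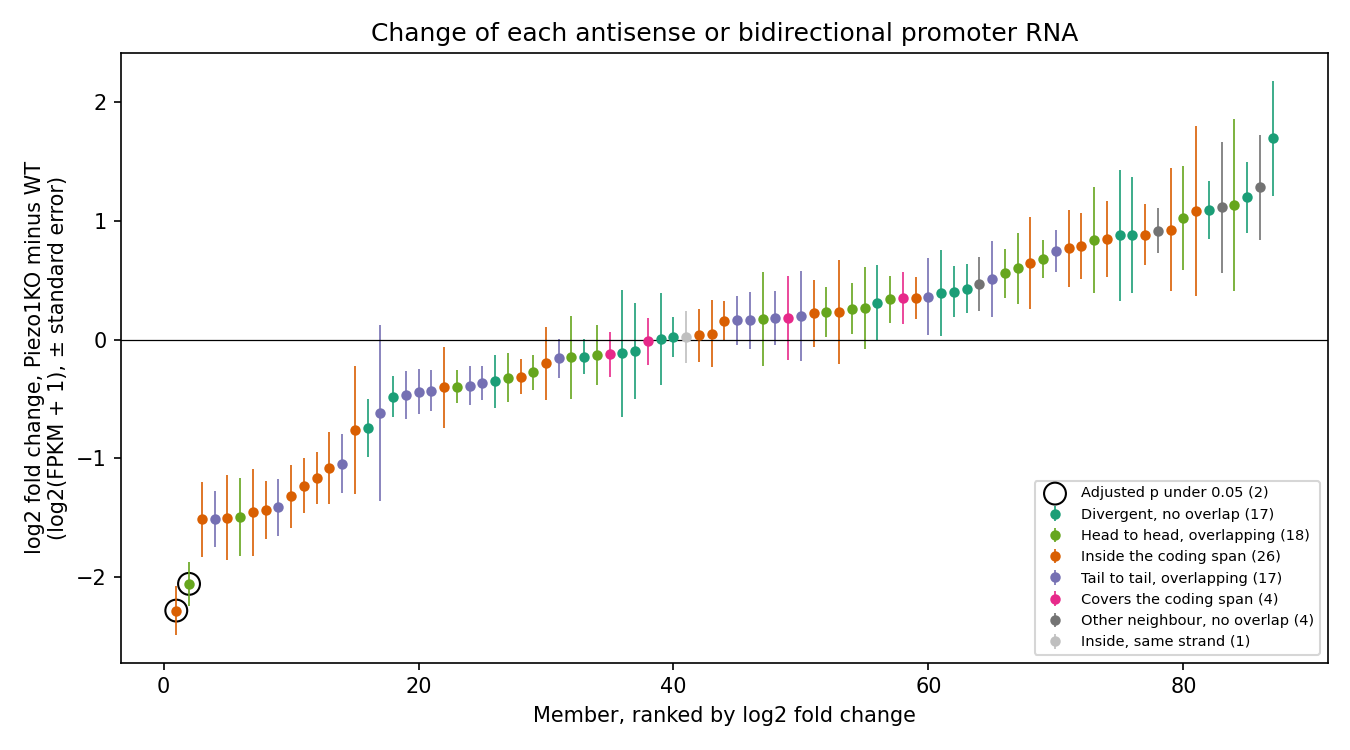
Log2 fold change, Piezo1KO minus WT, with its standard error, for the 87 RNAs ranked from low to high and coloured by position relative to the coding gene (number of RNAs in brackets). The 2 circled RNAs, Gm28192 and Gm44686, have an adjusted p under 0.05, and the 14 RNAs at -1 or lower all overlap a coding gene.

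The median log2 fold change of the 87 RNAs was 0.16, against -0.0059 for all genes tested. It depended on the scaling. With reads outside mitochondrial genes set equal between libraries the medians were -0.0073 for the RNAs and -0.20 for all genes, with all assigned reads set equal they were -0.42 and -0.67, and with voom they were -0.084 and -0.22. The RNAs' median thus changed sign under each, and relative to all genes it was 0.16, 0.19, 0.25 and 0.14 in the same order, with the deposited scale first.

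The 14 bidirectional promoter RNAs had a median log2 fold change of 0.21, with 0 at -1 or lower, 3 at 1 or higher and 0 that passed, and at an unadjusted p under 0.05 2 were higher and 0 lower, where 14.9% and 13.7% of all genes were. The 73 antisense RNAs had a median of 0.16, with 14 and 5 past these folds. Beside Ndufb1-ps, 2610306M01Rik, 2310010J17Rik, 0610009L18Rik and B230354K17Rik, 5 more of the most abundant bidirectional promoter RNAs did not pass either. 1700007L15Rik, divergent from the zinc finger gene Zfp148, had 1.65 and 4.70 FPKM in Piezo1KO and 2.75 and 2.997 FPKM in WT. 2810029C07Rik, divergent from the kinase gene Mark3, had 1.74 and 2.19 FPKM in Piezo1KO and 2.02 and 1.79 FPKM in WT, and 2810013P06Rik had 3.05 and 2.06 FPKM in Piezo1KO and 2.87 and 2.09 FPKM in WT. In these 3 RNAs the Piezo1KO libraries lay on either side of the WT libraries. D430020J02Rik, divergent from the condensin II gene Ncapg2, had 2.05 and 1.95 FPKM in Piezo1KO and 2.24 and 2.39 FPKM in WT (-0.14, adjusted p = 0.518). Gm48226, head to head with the gephyrin gene Gphn, had 1.78 and 1.76 FPKM in Piezo1KO and 2.38 and 2.32 FPKM in WT (-0.27, adjusted p = 0.266).

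By position, the median log2 fold change was 0.31 for the 17 divergent RNAs, 0.25 for the 18 head to head RNAs, -0.082 for the 26 inside a coding gene and -0.36 for the 17 tail to tail. None of the divergent RNAs was at -1 or lower, and 3 were at 1 or higher. Of the RNAs tail to tail with a coding gene, 8 of 17 were lower and 2 were higher without overlap between the groups, where 35.6% and 33.9% of all genes were. Entry through WT alone, which fixes a lower Piezo1KO mean, held for 4 of these 17, all 4 among the 8 lower. It also held for 9 RNAs inside a coding gene, 2 head to head and 1 divergent. Of the higher ones, 1500015A07Rik (tail to tail) and BC051226 (divergent) entered through Piezo1KO alone. Counts and medians by position are therefore a description. No test was made between these positions. Among other noncoding classes, 105 lincRNAs had a median of 0.13 with 0 higher and 2 lower, 8 sense intronic RNAs had -0.99 with 0 higher and 3 lower, and 67 snoRNAs had -1.93 with 0 higher and 22 lower.

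Level was also set against the coding gene in each library. In the 66 overlapping pairs the median log2(FPKM + 1) of the RNA minus that of the coding gene was -1.69 and -1.21 in Piezo1KO 1 and 2, and -1.77 and -1.78 in WT 1 and 2. The RNA stood above its coding gene in 20 and 23 pairs in Piezo1KO and in 19 and 17 pairs in WT. For the 17 divergent pairs the medians were -1.76 and -1.22 in Piezo1KO and -2.38 and -2.502 in WT, with the RNA above in 2 and 4 pairs in Piezo1KO and in 0 and 0 pairs in WT. Across pairs, levels of RNA and coding gene had a Pearson r between -0.10 and 0.11 over 66 pairs, which share the library.

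**Figure D3:**
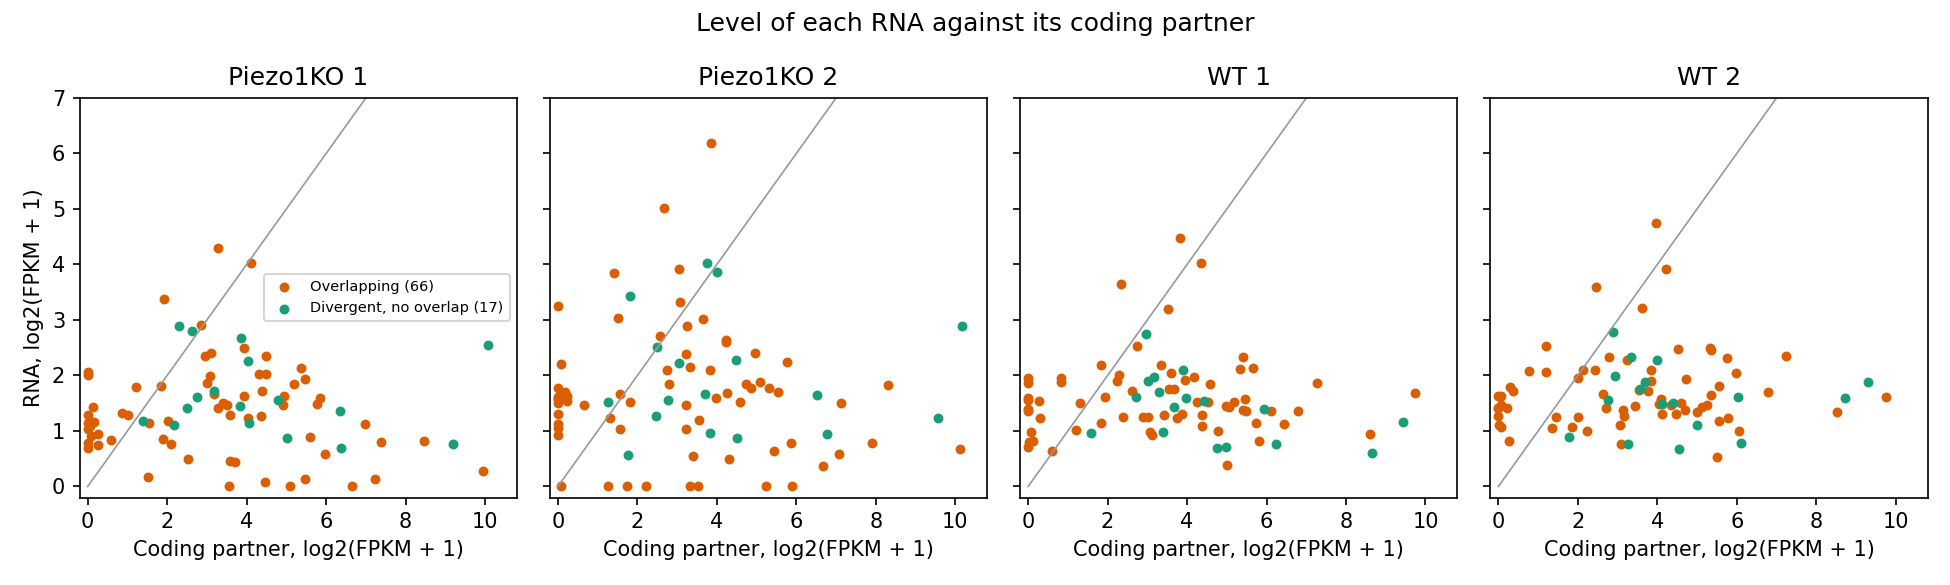
Level of each RNA (y axis) against its coding partner (x axis), as log2(FPKM + 1), in the 2 Piezo1KO libraries (left) and the 2 WT libraries (right), with the line of equal levels. Most RNAs lie below the line, and 20, 23, 19 and 17 of the 66 overlapping RNAs (orange) lie above it, from left to right.

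Whether an RNA moved apart from its coding gene was tested as the difference of both log2 values, in a limma fit over 221 overlapping pairs of a noncoding and a coding gene that were both tested. Of these pairs 51 hold one of the 87 RNAs. 6 of the 51 pairs passed with the RNA lower relative to its coding gene, where 27.6% of all 221 pairs did. All 6 RNAs were among those that reached the level through WT alone, which favours a lower RNA in Piezo1KO, so these 6 calls are a description. 0 of the 51 passed as higher, where 0.00% of all pairs did, with 3 higher and 13 lower at an unadjusted p under 0.05 (3.17% and 44.3% of all pairs). The RNAs of all 13 lower pairs had reached the level through WT alone, so this count is a description too. The median difference of the 51 was 0.20, against -1.47 in the other 170 pairs, of which 57 hold a snoRNA. The groups were apart in 20 pairs upward and 15 downward, against 20.8% and 57.5% of all pairs.

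Gm12867 lies inside Slc2a1, the gene of the glucose transporter GLUT1. It had 0 and 0.292 FPKM in Piezo1KO (0 and 1 reads) and 1.55 and 3.12 FPKM in WT (14 and 29 reads). Slc2a1 had 99.5 and 101.2 FPKM in Piezo1KO and 68.6 and 62.2 FPKM in WT. The RNA was lower and the coding gene higher in both Piezo1KO libraries, with a difference of -2.12 (SE 0.47, adjusted p = 0.0380).

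Gm28192 and Csnk1d also passed (-2.12, SE 0.34, adjusted p = 0.0213), with the values given above. 1700058P15Rik, in an intron of the actin regulator gene Vasp, had 3 and 0 reads in Piezo1KO and 16 and 18 reads in WT. Vasp had 62.3 and 58.5 FPKM in Piezo1KO and 42.7 and 39.9 FPKM in WT. The pair difference was -1.86 (SE 0.37, adjusted p = 0.0304).

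Gm44199 lies inside Brk1, a subunit gene of the WAVE complex that drives actin branching. It had 1 and 4 reads in Piezo1KO and 23 and 34 reads in WT, while Brk1 had 149 and 237 FPKM in Piezo1KO and 109.999 and 109 FPKM in WT (pair difference -1.86, SE 0.42, adjusted p = 0.0385). Gm11739, tail to tail with Prpsap1, a gene of nucleotide synthesis, had 1 and 3 reads in Piezo1KO and 24 and 25 reads in WT, and Prpsap1 had 43.4 and 42.6 FPKM in Piezo1KO and 32.1 and 33.8 FPKM in WT (-1.42, SE 0.35, adjusted p = 0.0462). In both pairs the RNA was lower and the coding gene higher in both Piezo1KO libraries.

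4930557K07Rik and Zfp384 passed as well (-1.24, SE 0.28, adjusted p = 0.0385). Zfp384 had 10.9 and 8.98 FPKM in Piezo1KO and 11.7 and 12.6 FPKM in WT, so here both genes were lower in Piezo1KO and the RNA more so. Of the 51 coding genes 0 passed alone in limma, where 1.10% of all genes tested did. At an unadjusted p under 0.05 8 were higher and 12 were lower, where 14.9% and 13.7% of all genes were. Gm44686 and Chd2 did not pass as a pair (-1.48, SE 0.42, adjusted p = 0.0623). All 6 calls were lost without WT 1 (adjusted p from 0.101 to 0.175), without WT 2 (0.124 to 0.1902), without Piezo1KO 2 (0.0793 to 0.103), without a filter (0.0634 to 0.111) and with all assigned reads set equal (0.0771 to 0.243). The call of Gm11739 was kept in 1 of 11 alternatives, that of 4930557K07Rik in 3 of 12 and those of the other 4 in 4 to 7 of 12.

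**Figure D4:**
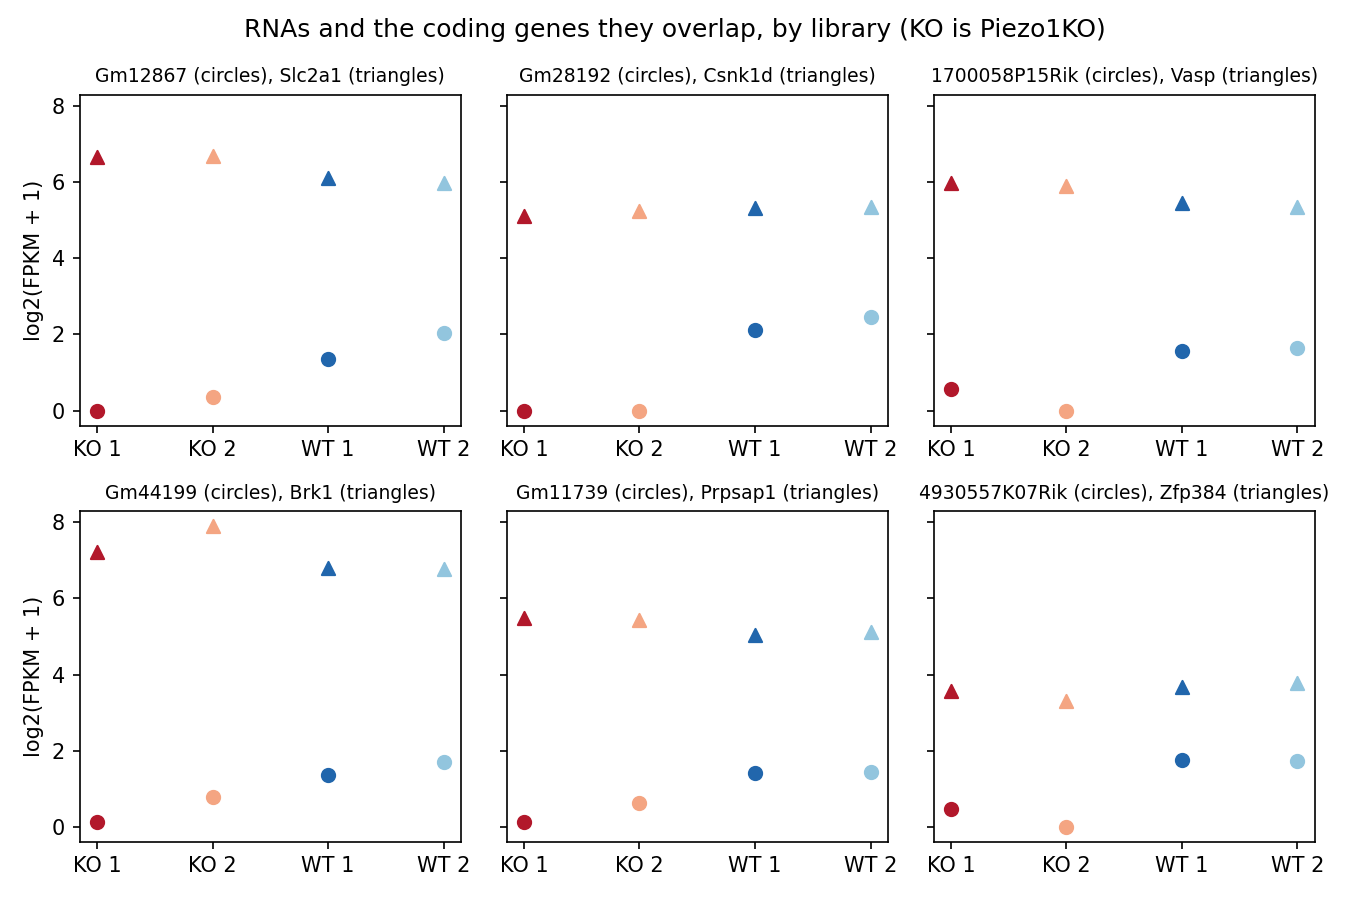
Levels, as log2(FPKM + 1), of the 6 RNAs that were lower relative to the coding gene they overlap (circles) and of that gene (triangles), in the Piezo1KO libraries (reds, left) and the WT libraries (blues, right). In all 6 panels the circles are lower in both Piezo1KO libraries, and the triangles of Slc2a1, Vasp, Brk1 and Prpsap1 are higher in them.

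The pairs with the RNA furthest above its coding gene in change did not pass. Gm16104 and Nfic differed by 2.28 (SE 1.06, adjusted p = 0.165), with Nfic at 15.3 and 7.39 FPKM in Piezo1KO and at 26.5 and 25.003 FPKM in WT. Gm29083 and Nrp2, a coreceptor gene for semaphorins and VEGF, differed by 1.45 (SE 0.47, adjusted p = 0.0805), with Gm29083 at 2.31 and 5.10 FPKM in Piezo1KO and at 1.73 and 1.54 FPKM in WT, and Nrp2 at 20.1 and 17.8 FPKM in Piezo1KO and at 30.4 and 31.2 FPKM in WT. The groups did not overlap in either gene of this pair. Ndufb1-ps and Cpsf2, a gene of the polyadenylation machinery, differed by 1.42 (adjusted p = 0.262), Rapgef3os2 and Rapgef3, a cAMP sensor gene, by 1.35 (0.0908), and Gm30025 and Dcaf5 by 1.15 (0.191).

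Over the 51 pairs the changes of RNA and coding gene had a Pearson r of -0.11 and the same sign in 25. The values share libraries and are a description. Of the 66 overlapping RNAs 15 had a coding gene below the level of the test. The 51 coding genes had log2 fold changes of -1.19 to 0.79.

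**Figure D5:**
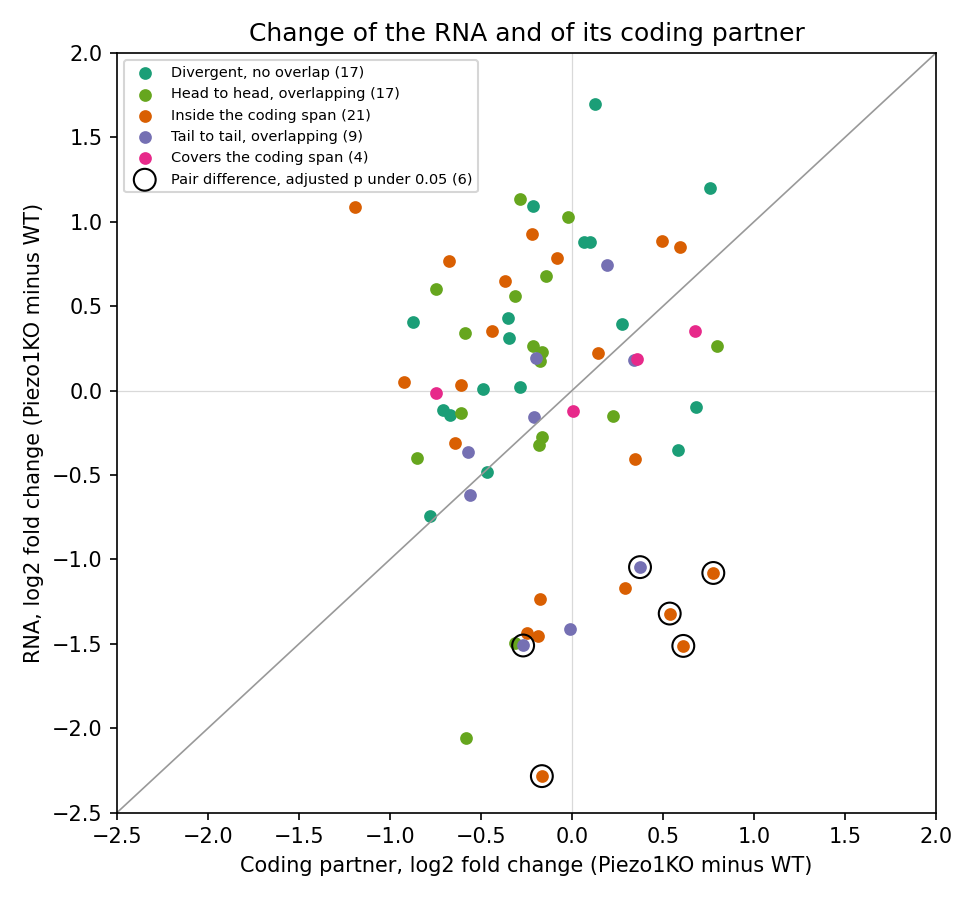
Log2 fold change of each RNA (y axis) against that of its coding partner (x axis), Piezo1KO minus WT, for 51 overlapping and 17 divergent pairs coloured by position. The line marks equal change, and the 6 circled pairs with an adjusted p under 0.05 all lie below it.

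Divergent pairs were added to the pair fit after the data had been seen, which made 262 pairs, of which 23.3% passed as lower and 0.00% as higher. 0 of the 17 divergent pairs passed (lowest limma adjusted p = 0.0632, with an unadjusted p under 0.05 in 2). Differences ran from -0.94 to 1.57 with a median of 0.52, and 14 of the 17 were above 0. BC051226, Gm13523, 2410022M11Rik, Map2k3os and C330013E15Rik, all above 0, had reached the level through Piezo1KO alone, which favours a higher RNA in Piezo1KO. C130021I20Rik, also above 0 at 0.035, had reached it through WT alone. The count above 0 is therefore a description. The highest differences were those of 2310010J17Rik and Picalm (1.57, SE 0.59, adjusted p = 0.121), BC051226 and Daxx (1.31, SE 0.34, adjusted p = 0.0632) and 2610306M01Rik and Aak1 (1.28, SE 0.44, adjusted p = 0.0998). 2610306M01Rik had 6.44 and 9.86 FPKM in Piezo1KO and 5.74 and 5.85 FPKM in WT, while Aak1 had 3.91 and 2.51 FPKM in Piezo1KO and 6.84 and 6.39 FPKM in WT. With starts 77 bases apart, the RNA was higher and the kinase gene lower in both Piezo1KO libraries.

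2810001G20Rik had 3.78 and 13.6 FPKM in Piezo1KO and 3.26 and 3.86 FPKM in WT, and Cox10 had 15.2 and 14.98 FPKM in Piezo1KO and 13.96 and 14.8 FPKM in WT. Here Piezo1KO 2 alone was high for the RNA, and the coding gene lay between 13.96 and 15.2 FPKM in all 4 libraries. Across the 17 pairs the changes had an r of 0.38 and the same sign in 9, again as a description.

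Factors that end, degrade or edit such RNAs were listed in 5 groups, and 0 genes passed in each, where 1.10% of all genes tested passed. 12 nuclear exosome genes had a median log2 fold change of 0.30. 12 genes of its adaptors had -0.10, 14 Integrator genes -0.19, 15 U1 and poly(A) site factors -0.11, and 8 tested genes of double-stranded RNA handling -0.37. At an unadjusted p under 0.05, where 14.9% of all genes were higher and 13.7% lower, 2 exosome genes were higher and 0 lower, and 1 gene of double-stranded RNA handling was higher and 2 were lower. In the other lists 0 were higher, and 2 adaptor genes, 1 Integrator gene and 1 gene of the U1 and poly(A) site factors were lower. The closest to the threshold was Dicer1, which cuts double-stranded RNA, with 2.51 and 2.12 FPKM in Piezo1KO and 5.24 and 5.99 FPKM in WT (-0.996, SE 0.15, adjusted p = 0.0802). Adar, an editor of such RNA, had 3.07 and 2.33 FPKM in Piezo1KO and 4.87 and 5.66 FPKM in WT (-0.76, adjusted p = 0.122). Exosc5, a subunit of the exosome core, had 7.91 and 12.3 FPKM in Piezo1KO and 6.004 and 5.59 FPKM in WT (0.68, adjusted p = 0.155). In all 3 genes the groups did not overlap.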

How the data were processed

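RNA from 4 libraries, 2 labelled Piezo1KO and 2 labelled WT, was sequenced from a SMARTer mRNA kit, per the labels' protocols. The deposited table gives the authors' FPKM per gene. Per the submitters' processing notes, fastp 0.19.7 was used for the raw reads, featureCounts 1.5.0-p3 for the counting, and mm10 (GRCm38) as the build. The aligner, strand setting and FPKM formula were not given in the sources used here.

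Whole reads per gene were recovered from FPKM times length, for 100% of values above 0 (tolerance 0.05 reads). Relative to the assigned reads, the total behind the deposited FPKM was 0.962 and 0.544 in Piezo1KO 1 and 2, and 1.26 and 1.28 in WT 1 and 2. The deposited scale therefore differs from one of assigned reads, and medians move with it.

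The test was limma 3.58.1 (R 4.3.3) on log2(FPKM + 1) (intensity trend, Piezo1KO minus WT, no block, two-sided, Benjamini-Hochberg, threshold 0.05), with 2 residual and 2.59 prior degrees of freedom. This scale understates changes of low genes. Simulated counts, with the same spread in all libraries and changes only in genes of higher counts, were also run through the fit. They do not bear on RNAs with few reads. Positions came from the deposited coordinates, with the coding gene sharing the most bases, or the nearest, as partner, and exons from GENCODE M21, where 86 of the 87 RNAs had the same coordinates. Sequences are from RefSeq (GRCm38.p6). Python 3.11.15, pandas 2.3.3 and scipy 1.17.1 were used for tables.

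The RNAs named were those that passed, the 10 with the highest mean, the 8 highest and 8 lowest fold changes, the 10 highest bidirectional promoter RNAs, RNAs of the published list, the 5 highest and 5 lowest pair differences, and 3 on each side of the level threshold. Scpep1os and 4930435M08Rik fall outside this rule and were named after their values were seen. 1 coding partner that the rule names is not reported here. Members, lists and this rule were chosen with earlier results of these data known. As alternatives, each library was left out, the pseudocount was set to 0.1, the filter was dropped or raised to a mean of 5 FPKM, a replicate block was added, the trend was dropped, values were rescaled to reads outside mitochondrial genes or to all assigned reads, voom was used on recovered reads, and pairs had to overlap over at least 50% of the span.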

Additional observations from a re-analysis of the deposited data

How the results depend on the processing

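Of the single RNA and pair values recomputed under the alternatives, 559 kept their side of the threshold, 51 lost a call and 55 gained one. Of the 559, none of which changed a call, 33 from 10 of the 58 RNAs and pairs had another sign than reported, 9 of them with all assigned reads set equal, and 0 of the 33 had an adjusted p under 0.05. The count of RNAs lower in Piezo1KO, 2 as reported, was 1 at a pseudocount of 0.1, 0 without a filter, 0 at a mean of at least 5 FPKM, where 9 RNAs are tested, and 17 with all assigned reads set equal. Leaving out 1 library gave 0 to 22 lower and 0 to 27 higher, with 0 and 0 without WT 1 or WT 2, 22 and 27 without Piezo1KO 1, and 16 and 3 without Piezo1KO 2. With a lone library in a group, that library is assumed to vary like the other group. The replicate block gave 2 lower and 1 higher. The median log2 fold change, 0.16 as reported, was 0.88 at a mean of at least 5 FPKM, -0.0073 with reads outside mitochondrial genes set equal, -0.42 with all assigned reads set equal, -0.084 with voom, and -0.080 to 0.21 with 1 library left out. In pairs, the count of 6 RNAs lower than their coding gene, where 27.6% of all pairs were, became 3 at a pseudocount of 0.1 (31.2%). It was 0 of 62 pairs without a filter (0.163% of all pairs) and 0 of 4 pairs at a mean of at least 5 FPKM (61.5%). With the replicate block 3 were lower (32.1% of all pairs) and 1 higher (2.71%), without Gm11739, 4930557K07Rik and Gm44199. With all assigned reads set equal 0 were lower (13.1% of all pairs). The pair median, 0.20 as reported, was 1.06 at a mean of at least 5 FPKM and -0.030 to 0.39 with 1 library left out. Over all genes, 122 passed as reported, 1 without a filter, 264 with the replicate block, 1707 with all assigned reads set equal and 306 with voom. Same-numbered libraries did not deviate together (correlation -0.033) and share only a number. The causes of these shifts were not tested. The median RNA was counted from 19 to 41 reads per library, so that small differences are not detectable at this depth.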
